A study of Mus musculus with 24 samples.

Results

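Collagen genes were taken as the rows of the gene expression table whose symbol has the form Col, a number, a and a number, such as Col1a1. The table lists 24043 genes and 44 of them have such a symbol. Of these 44, 27 had a group mean above 1 FPKM (a level in fragments scaled for transcript length and library size) in at least 1 group: 9 of 11 fibrillar collagens, 3 of 6 basement membrane collagens and 15 of 27 others. The cells were C2C12, an immortal line of mouse skeletal myoblasts, the precursor cells of muscle fibres, so every group came from a single line. Cells were kept either in growth medium (DMEM with fetal bovine serum, never allowed to reach confluence) or in differentiation medium (DMEM with horse serum and an ITS supplement, which in this line normally drives fusion into myotubes), at 21% oxygen (normoxia) or at 2% oxygen (hypoxia). Each of the 4 combinations had 2 biological replicates, A and B, sequenced as stranded total RNA. The length of the differentiation culture is not given in the sources used here. The 8 H3K27me3 chromatin libraries and 8 input libraries of the study were not analysed here.

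Collagens are secreted proteins of 3 chains wound into a triple helix, and each gene encodes 1 chain. Fibrillar collagens (types I, III and V in most soft tissue) form the load-bearing fibres of connective tissue, type IV forms the sheet-like network of the basement membrane that surrounds every muscle fibre, and type VI forms beaded filaments that tie the basement membrane to the fibres around it. Other collagens sit on fibril surfaces (types XII, XIV and XVI), join basement membranes to the neighbouring matrix (types VII, XV and XVIII) or span the plasma membrane (types XXIII and XXV). Folding of the helix needs hydroxylation of prolines by enzymes that use oxygen, and cross-linking by lysyl oxidases uses oxygen as well.

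The libraries were first compared with their labels. All 8 myoblast and myotube markers examined exceeded 1 FPKM in a group, and their summed level was 406 to 490.3 FPKM in normoxic growth medium, 6203 to 6210 FPKM in normoxic differentiation medium, 109 to 117 FPKM in hypoxic growth medium and 69.2 to 93.5 FPKM in hypoxic differentiation medium. The hypoxic differentiation libraries are therefore named here by their medium and not as myotubes. Of 6 fibroblast markers, Pdgfra, Pdgfrb, Twist2 and Dpt exceeded 1 FPKM, with Tcf21 listed at 0 and Thy1 at most 0.0313 FPKM in any library. Their summed level was 113 to 119, 35.7 to 37.2, 61.8 to 67.3 and 22.1 to 22.7 FPKM in the same order of groups. Within this sum Dpt had a mean of 1.00 FPKM in normoxic growth medium and 22.4 FPKM in normoxic differentiation medium, whereas Pdgfra, Pdgfrb and Twist2 had 11.2, 77.8 and 26.0 FPKM in the first and 0.858, 10.4 and 2.80 FPKM in the second. Of 6 cartilage and bone markers, Sox9 and Bglap exceeded 1 FPKM, and the list summed to 83.8 to 102 FPKM in normoxic differentiation medium, with Bglap at 93.1 and 75.5 FPKM, against 15.6 to 27.4 FPKM in the other libraries. Of 4 adipocyte markers Pparg alone exceeded 1 FPKM, at 1.46 to 5.37 FPKM over the libraries. The part of these cell types in the collagen values was not tested. None of 4 endothelial and none of 4 epithelial markers exceeded 1 FPKM. Cd68, at 25.8 and 42.8 FPKM in hypoxic differentiation medium, was the one leukocyte marker above 1 FPKM, while Ptprc was at most 0.0137 FPKM. Replicates A and B of hypoxic differentiation medium stood apart from each other, with 613 tested genes differing over 2-fold on the log2(FPKM + 1) scale, against 56 to 71 in the other groups. Among the collagens above 1 FPKM, 7 differed over 2-fold in FPKM between them: Col4a1, Col4a2, Col7a1, Col9a3, Col14a1, Col15a1 and Col25a1. Sequencing depth in reads is unknown, and the steps between low values put the 8 libraries at 0.633 to 1 of the deepest. Both ends of that range are hypoxic differentiation medium, with replicate A the deepest and replicate B at 0.633. The part of depth in the differences between these replicates was not tested.

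Collagen RNA was found in every group, and both its total and its make-up differed between groups. The 44 genes summed to 1849 and 1808 FPKM in normoxic growth medium, 1091 and 1005 FPKM in differentiation medium at 21% oxygen, 1706 and 1744 FPKM in hypoxic growth medium and 1786 and 1360.0 FPKM in hypoxic differentiation medium. The sum was thus lowest in both normoxic differentiation libraries. That corresponds to 0.205% to 0.377% of all FPKM. The number of collagen genes above 1 FPKM was 20, 23, 19 and 20 in these groups. In bulk samples, fewer cells of a type and less RNA per cell cannot be told apart.

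**Figure D1:**
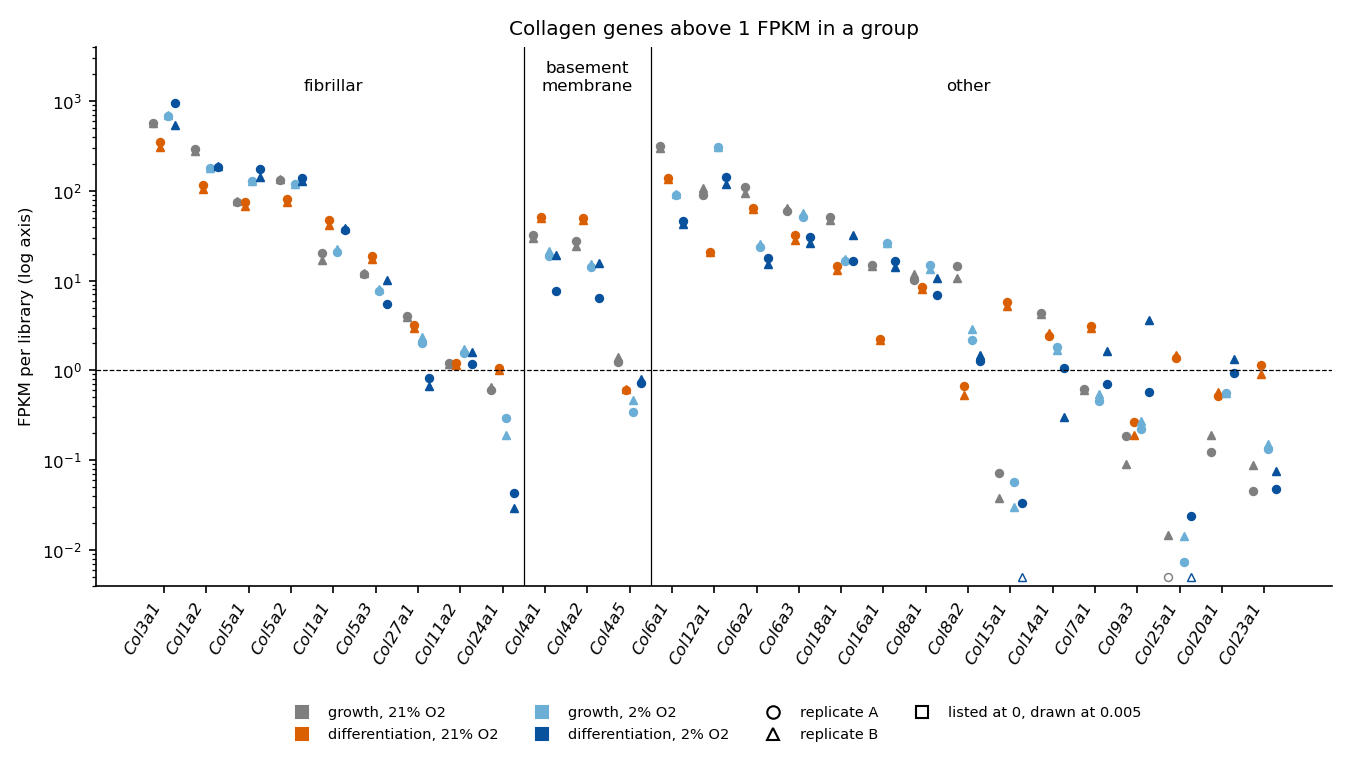
FPKM of each of the 27 collagen genes above 1 FPKM in a group, for every library (colour, medium and oxygen; circle, replicate A; triangle, replicate B), on a log axis, with the dashed line at 1 FPKM and open symbols for values listed at 0. Col3a1 is the highest fibrillar gene in all 8 libraries, and the mean of Col15a1, Col23a1, Col24a1 and Col25a1 exceeds 1 FPKM in normoxic differentiation medium and in no other group.

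Fibrillar chains made up 60.2% and 60.8% of the collagen FPKM in normoxic growth medium and 83.3% and 77.5% in hypoxic differentiation medium. Basement membrane chains held 9.27% and 9.75% in normoxic differentiation medium and at most 3.28% in any other library. The 3 type VI chains Col6a1, Col6a2 and Col6a3 together held 26.4% and 25.2% in normoxic growth medium, 21.5% and 22.5% in differentiation medium at 21% oxygen and 9.63% and 10.0% in hypoxic growth medium. These shares are a description with no test. Col12a1 alone held 17.9% and 17.7% in hypoxic growth medium, against 4.83% and 5.93% in normoxic growth medium.

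**Figure D2:**
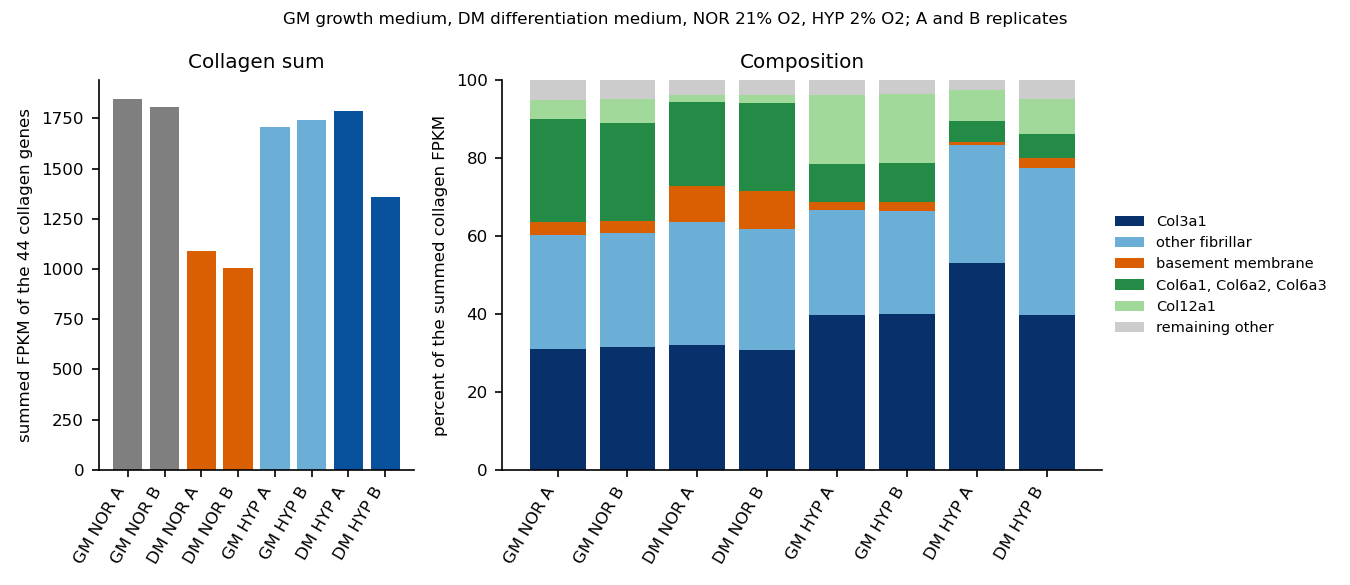
Left, summed FPKM of the 44 collagen genes in each library. Right, the percent of that sum held by Col3a1, the other fibrillar genes, the basement membrane genes, the 3 type VI chains, Col12a1 and the remaining genes. The type VI share is 25.2% to 26.4% in normoxic growth medium and 5.26% to 6.17% in hypoxic differentiation medium.

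Among fibrillar genes, Col3a1, the sole chain of type III collagen, had the highest level. Its FPKM was 573 and 571 in normoxic growth medium, 349.6 and 308 in differentiation medium at 21% oxygen, 679 and 696 in hypoxic growth medium and 949 and 540.0 in hypoxic differentiation medium. Both normoxic differentiation libraries lay below the other 6, and the hypoxic differentiation pair held the highest value of the 8 and, in replicate B, one below all 4 growth medium libraries. In differentiation medium Col3a1 was higher at 2% than at 21% oxygen, by 1.12 ± 0.24 on the log2(FPKM + 1) scale (± SE; limma, adjusted p = 0.00567), and by 0.72 without replicate A of hypoxic differentiation medium. Differentiation at 21% oxygen lowered it by a log2 change of -0.80 ± 0.24 (limma, adjusted p = 0.0231). That call was lost under median-of-ratios scaling (-0.52, limma adjusted p = 0.146), under upper-quartile scaling and when any 1 of the 4 normoxic libraries was left out.

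The chains of type I collagen moved apart. Col1a2 stood at 295 and 279.7 FPKM in normoxic growth medium, 115 and 105 in differentiation medium at 21% oxygen, 179 and 182 in hypoxic growth medium, and 184 and 189 in hypoxic differentiation medium. For Col1a1 the levels were 20.5 and 17.2, 47.3 and 41.9, 21.0 and 22.6, and 36.4 and 38.2 FPKM in the same order. Col1a2 was thus highest in normoxic growth medium and lowest in normoxic differentiation medium, while both differentiation groups exceeded both growth groups for Col1a1, with no overlap. With differentiation at 21% oxygen Col1a1 rose by 1.20 ± 0.11 (log2, limma adjusted p = 0.000108) and Col1a2 fell by 1.37 ± 0.08 (limma, adjusted p = 1.27e-05). At 2% oxygen Col1a1 rose by 0.75 ± 0.11 (limma, adjusted p = 0.00279), and the Col1a2 change of 0.05 ± 0.08 was not called (limma, adjusted p = 0.636). Hypoxia lowered Col1a2 in growth medium (-0.67 ± 0.08, limma adjusted p = 0.000855) and raised it in differentiation medium (0.75 ± 0.08, limma adjusted p = 0.000171). The ratio of Col1a1 to Col1a2 FPKM, both per length, was 0.0613 and 0.0693 in normoxic growth medium, 0.397 and 0.410 in differentiation medium at 21% oxygen, 0.117 and 0.124 in hypoxic growth medium and 0.197 and 0.202 in hypoxic differentiation medium. Col1a1 was below Col1a2 in all 8 libraries. As background, the type I collagen trimer usually holds more alpha-1 than alpha-2 chains.

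Type V collagen, which forms the core of thin fibrils and limits their width, showed a split among its 3 chains. Col5a1 was at 76.0 and 76.9 FPKM in normoxic growth medium, 75.1 and 67.5 in differentiation medium at 21% oxygen, 129 and 128 in hypoxic growth medium and 173 and 144 in hypoxic differentiation medium. Its 4 hypoxic libraries were above the 4 normoxic ones. Hypoxia raised Col5a1 by 0.74 ± 0.10 in growth medium (log2, limma adjusted p = 0.00193) and by 1.14 ± 0.10 in differentiation medium (limma, adjusted p = 0.000105). Col5a2, which lies next to Col3a1 in the RefSeq gene order of chromosome 1, was at 131 and 136, 82.0 and 75.2, 119.8 and 119, and 138 and 129 FPKM in the 4 groups. It fell by 0.75 ± 0.08 with differentiation at 21% oxygen (limma, adjusted p = 0.000171; -0.48 under median-of-ratios scaling) and rose by 0.76 ± 0.08 with hypoxia in differentiation medium (limma, adjusted p = 0.000171). Col5a3, opposite to Col5a2 with hypoxia in differentiation medium, was at 12.0 and 12.1, 18.7 and 17.3, 7.57 and 8.14, and 5.43 and 10.1 FPKM. Its difference of 0.54 ± 0.23 with differentiation at 21% oxygen was not called (limma, adjusted p = 0.0781), though it was under median-of-ratios scaling (0.80). With hypoxia in growth medium neither Col5a3 (-0.56 ± 0.23) nor Col5a2 (-0.16 ± 0.08) was called. Hypoxia in differentiation medium lowered Col5a3 by a log2 change of -1.17 ± 0.23 (limma, adjusted p = 0.00407), and by -0.78 without replicate A of hypoxic differentiation medium. Its normoxic differentiation libraries were the 2 highest.

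The minor fibrillar chains were Col27a1 and Col11a2, known from cartilage, and Col24a1, known from bone. Col27a1 was at 3.95 to 4.01 FPKM in normoxic growth medium and 0.668 to 0.817 FPKM in hypoxic differentiation medium, and hypoxia lowered it in growth medium (-0.65 ± 0.11, limma adjusted p = 0.00345) and in differentiation medium (-1.24 ± 0.11, limma adjusted p = 7.83e-05). Col24a1, one of the pair of genes that only just passed 1 FPKM, was at 0.599 and 0.649 FPKM in normoxic growth medium, 1.07 and 1.01 in differentiation medium at 21% oxygen, 0.293 and 0.192 in hypoxic growth medium and 0.0434 and 0.0294 in hypoxic differentiation medium. The groups did not overlap. Col11a2 ranged from 1.15 to 1.73 FPKM over the 8 libraries and was called in none of the 5 contrasts.

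Basement membrane collagen was represented by Col4a1 and Col4a2, whose products assemble together as the common type IV trimer. Col4a1 was at 32.0 and 29.8 FPKM in normoxic growth medium, 51.1 and 49.7 in differentiation medium at 21% oxygen, 19.0 and 21.4 in hypoxic growth medium and 7.60 and 19.1 in hypoxic differentiation medium. For Col4a2 the levels were 27.4 and 24.5, 49.4 and 47.6, 14.3 and 15.5, and 6.45 and 15.9 FPKM. Both genes were highest in normoxic differentiation medium and lower in every hypoxic library than in any normoxic one, and in both the hypoxic differentiation replicates differed over 2-fold. Hypoxia in differentiation medium lowered Col4a1 by a log2 change of -1.97 ± 0.35 (limma, adjusted p = 0.00237) and Col4a2 by -2.14 ± 0.34 (limma, adjusted p = 0.00138). Both falls were smaller without replicate A of hypoxic differentiation medium, the lower of that pair, and larger without replicate B. In the other 3 comparisons of one group with another neither gene was called, with a difference of 0.69 ± 0.35 for Col4a1 (limma, adjusted p = 0.121) and 0.88 ± 0.34 for Col4a2 (limma, adjusted p = 0.0541) with differentiation at 21% oxygen. Those differences are past the threshold when either hypoxic differentiation library is left out (limma, adjusted p = 0.000449 to 0.000458 for Col4a1 and 0.000159 to 0.000163 for Col4a2) and when only the 4 normoxic libraries are fitted. Hypoxia in growth medium gave -0.59 ± 0.35 for Col4a1 and -0.76 ± 0.34 for Col4a2, likewise called without either of those libraries. Leaving out replicate B of hypoxic differentiation medium also brought a call of lower levels with differentiation at 2% oxygen (-1.30 for Col4a1 and -1.09 for Col4a2).

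The ratio of Col4a1 to Col4a2 FPKM stayed between 1.03 and 1.38 in the 8 libraries, including both discordant replicates. These genes are neighbours on chromosome 8, transcribed in opposite directions, with start sites 21 bases apart in RefSeq (GRCm38.p6). Their promoter windows, each 250 bases before to 50 after the start, are shown because the 2 levels moved together. They share 78 bases, in capitals, from 11312777 to 11312854. Each is written 5′ to 3′ on its gene's own strand, so the shared bases appear as reverse complements. The Col4a1 window is chr8:11312777-11313076, minus strand, and the Col4a2 window is chr8:11312555-11312854, plus strand.
Col4a1: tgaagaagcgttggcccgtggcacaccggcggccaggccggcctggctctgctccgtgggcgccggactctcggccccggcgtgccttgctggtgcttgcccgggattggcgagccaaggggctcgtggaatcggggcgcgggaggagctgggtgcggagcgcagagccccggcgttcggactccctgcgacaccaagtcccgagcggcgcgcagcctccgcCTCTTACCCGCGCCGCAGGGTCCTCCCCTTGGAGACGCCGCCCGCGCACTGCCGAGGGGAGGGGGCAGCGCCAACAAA
Col4a2: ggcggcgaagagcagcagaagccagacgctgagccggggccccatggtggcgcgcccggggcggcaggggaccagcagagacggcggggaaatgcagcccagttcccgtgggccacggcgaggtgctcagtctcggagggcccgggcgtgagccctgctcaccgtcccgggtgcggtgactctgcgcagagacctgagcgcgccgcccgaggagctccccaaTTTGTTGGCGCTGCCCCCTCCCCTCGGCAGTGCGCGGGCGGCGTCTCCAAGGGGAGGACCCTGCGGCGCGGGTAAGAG

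Col4a5, a chain of the other type IV networks, was low, with group means of 1.33, 0.607, 0.405 and 0.759 FPKM. Only normoxic growth medium was above 1 FPKM. Col4a3, Col4a4 and Col4a6 were at most 0.0340 FPKM in any library.

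In type VI collagen, the alpha-1 and alpha-2 chains were lower under hypoxia in both media, and the differences of the alpha-3 chain were not called. Col6a1 was at 319 and 297 FPKM in normoxic growth medium, 138 and 136 in differentiation medium at 21% oxygen, 89.6 and 92.6 in hypoxic growth medium and 45.5 and 42.3 in hypoxic differentiation medium. Col6a2 was at 109 and 94.99, 64.2 and 62.1, 23.8 and 25.3, and 18.1 and 15.4 FPKM. Col6a3 was at 59.3 and 64.6, 32.5 and 28.6, 51.0 and 56.6, and 30.3 and 26.2 FPKM. For the first 2 chains the 4 groups were fully separated in the same order, whereas Col6a3 separated by medium, with its hypoxic and normoxic differentiation libraries overlapping. Hypoxia lowered Col6a1 by a log2 change of -1.75 ± 0.07 in growth medium (limma, adjusted p = 3.01e-05) and -1.62 ± 0.07 in differentiation medium (limma, adjusted p = 5.14e-06). Col6a2 changed by -2.01 ± 0.11 (limma, adjusted p = 6.24e-05) and -1.86 ± 0.11 (limma, adjusted p = 1.29e-05). The Col6a3 differences of -0.20 ± 0.11 (limma, adjusted p = 0.19) and -0.11 ± 0.11 (limma, adjusted p = 0.415) were not called. Differentiation lowered all 3 chains at both oxygen levels, Col6a3 by -0.999 ± 0.11 at 21% (limma, adjusted p = 0.000261) and -0.91 ± 0.11 at 2% (limma, adjusted p = 0.00154). The ratio of Col6a1 to Col6a3 FPKM was 4.24 to 5.38 in the normoxic libraries and 1.50 to 1.76 in the hypoxic ones, with no overlap and no test. Col6a1 and Col6a2 are next to each other on chromosome 10, and Col6a3 is on chromosome 1. The additional chains Col6a4 and Col6a5 were at most 0.132 FPKM, and Col6a6 was listed at 0 in every library.

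**Figure D3:**
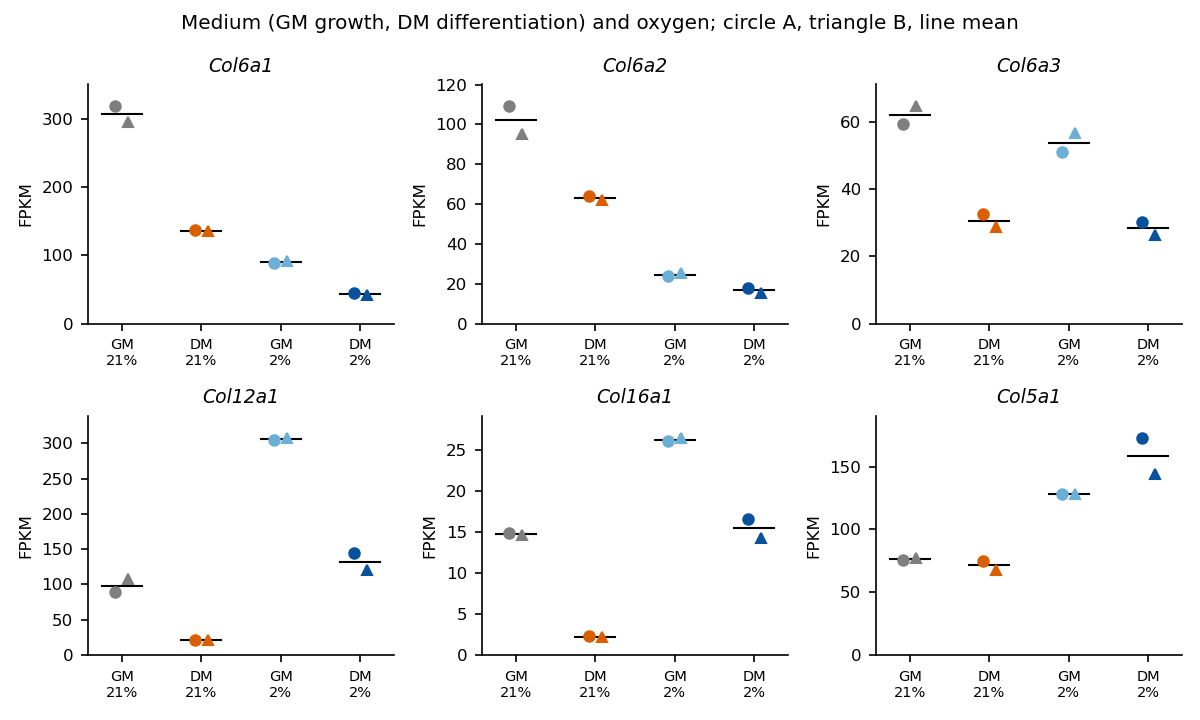
FPKM of Col6a1, Col6a2, Col6a3, Col12a1, Col16a1 and Col5a1 in each library by medium and oxygen, with each panel on its own linear axis from 0 and a line at the mean of the 2 replicates. Col6a1 and Col6a2 step down over the 4 groups as drawn, Col6a3 is lower in both differentiation groups, and Col12a1 and Col16a1 are lowest in normoxic differentiation medium.

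The fibril-associated collagens Col12a1 and Col16a1 rose with hypoxia in both media and fell with differentiation at both oxygen levels. Col12a1, a long chain that coats fibrils and bridges them to other matrix, was at 89.3 and 107 FPKM in normoxic growth medium, 20.9 and 21.0 in differentiation medium at 21% oxygen, 305 and 308 in hypoxic growth medium and 144 and 119.9 in hypoxic differentiation medium. Col16a1 was at 14.9 and 14.6, 2.26 and 2.18, 26.0 and 26.5, and 16.6 and 14.2 FPKM in those groups. In both genes hypoxic growth medium was highest and normoxic differentiation medium lowest; the hypoxic differentiation libraries of Col12a1 exceeded those of normoxic growth medium, and those of Col16a1 overlapped with them. Hypoxia raised Col12a1 by 1.64 ± 0.12 in growth medium (log2, limma adjusted p = 0.000184) and 2.59 ± 0.12 in differentiation medium (limma, adjusted p = 5.01e-06). For Col16a1 the increases were 0.79 ± 0.10 (limma, adjusted p = 0.00117) and 2.35 ± 0.10 (limma, adjusted p = 3.16e-06). Differentiation lowered Col12a1 by -2.17 ± 0.12 at 21% oxygen (limma, adjusted p = 1.22e-05) and -1.21 ± 0.12 at 2% (limma, adjusted p = 0.000763). Col16a1 changed by -2.29 ± 0.10 (limma, adjusted p = 4.13e-06) and -0.73 ± 0.10 (limma, adjusted p = 0.00201). Col20a1, of the same fibril-associated class and close to 1 FPKM, had group means of 0.158, 0.551, 0.562 and 1.13 FPKM, above 1 FPKM in hypoxic differentiation medium alone.

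Col14a1, another fibril-surface collagen, was lower under hypoxia in both media, where Col12a1 was higher. Its group means were 4.27, 2.53, 1.75 and 0.683 FPKM, and hypoxia lowered it in growth medium (-0.94 ± 0.20, limma adjusted p = 0.0109) and in differentiation medium (-1.11 ± 0.20, limma adjusted p = 0.00286). Its fall in growth medium was not called when replicate A of normoxic growth medium or either hypoxic growth library was left out, nor with a pseudocount of 0.1. Differentiation lowered it by -0.58 ± 0.20 at 21% oxygen and -0.74 ± 0.20 at 2% (limma, adjusted p = 0.041 and 0.0275), and both calls were lost in most of the fits that left out 1 library. Without replicate B of hypoxic differentiation medium the change at 2% oxygen was -0.41. Col9a3, a cartilage chain, was at 0.570 and 3.63 FPKM in hypoxic differentiation medium and at most 0.272 in the other libraries. It was called in no contrast.

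Promoter windows from RefSeq (GRCm38.p6) were found for 22 of the 27 genes, as 24 windows of 300 bases, and Col1a1, Col5a2, Col9a3, Col12a1 and Col14a1 had none. The letters ACGTG or GCGTG, the core to which hypoxia-inducible factors are known to bind, were searched on both strands. They occurred in 9 of the 24 collagen windows (37.5%) and in 43.8% of 32851 windows of all genes. The letters GGGCGG, a core of GC boxes bound by Sp1, occurred in 17 of 24 (70.8%) against 35.7% of all windows. The collagen windows were richer in G and C, with a median of 60.2% (37.7% to 75.0%) against 52.7% over all windows, and 20 of 24 lay above the latter. The part of that content in the GGGCGG share was not tested. Windows are shown for Col5a1 and Col16a1, called higher with hypoxia in both media, and for Col6a1 and Col6a2, called lower in both. A match describes these letters only. Capitals mark ACGTG or GCGTG as read on either strand, so that CACGT and CACGC are their reverse complements. The windows are chr2:27886175-27886474 (plus strand) for Col5a1, chr4:130047590-130047889 (plus strand) for Col16a1, chr10:76725995-76726294 (minus strand) for Col6a1 and chr10:76623355-76623654 (minus strand) for the downstream of 2 Col6a2 start sites.
Col5a1: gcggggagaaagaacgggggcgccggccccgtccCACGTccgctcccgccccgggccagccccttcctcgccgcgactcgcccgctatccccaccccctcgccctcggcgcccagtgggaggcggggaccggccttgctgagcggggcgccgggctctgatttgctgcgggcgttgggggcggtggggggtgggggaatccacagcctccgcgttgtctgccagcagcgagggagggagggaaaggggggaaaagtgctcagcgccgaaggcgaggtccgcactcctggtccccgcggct
Col16a1: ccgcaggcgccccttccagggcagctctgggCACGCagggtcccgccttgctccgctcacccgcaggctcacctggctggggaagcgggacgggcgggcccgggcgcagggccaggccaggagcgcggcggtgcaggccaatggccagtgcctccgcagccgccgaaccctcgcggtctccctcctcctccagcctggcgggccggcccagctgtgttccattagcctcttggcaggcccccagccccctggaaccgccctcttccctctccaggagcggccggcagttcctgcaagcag
Col6a1: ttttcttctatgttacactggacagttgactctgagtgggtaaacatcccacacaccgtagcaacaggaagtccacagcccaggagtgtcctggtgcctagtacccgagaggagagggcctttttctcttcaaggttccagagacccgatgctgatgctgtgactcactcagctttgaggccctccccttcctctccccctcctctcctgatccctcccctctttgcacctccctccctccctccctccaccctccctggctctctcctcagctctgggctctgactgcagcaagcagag
Col6a2: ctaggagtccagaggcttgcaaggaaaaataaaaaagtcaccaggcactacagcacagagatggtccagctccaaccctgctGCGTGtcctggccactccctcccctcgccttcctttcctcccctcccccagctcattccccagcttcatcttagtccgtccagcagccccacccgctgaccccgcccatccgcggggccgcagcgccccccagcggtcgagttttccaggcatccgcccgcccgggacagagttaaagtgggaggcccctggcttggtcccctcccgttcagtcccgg

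Col5a1, Col16a1 and this Col6a2 window each hold 1 match, and the Col6a1 window holds none. The window of the other Col6a2 start site, which is not shown, holds no match. Of the genes with a window that were called in both media, 2 of 3 called higher (Col20a1 held no match) and 1 of 4 called lower (Col24a1 and Col27a1 held none either) had a match in any window. Among the windows of all genes 43.8% held a match. Counts this small cannot tell the 2 directions apart, from each other or from all genes. Col12a1, called higher in both media, and Col14a1, called lower in both, had no window. Col20a1 and Col24a1 each exceeded 1 FPKM in a single group of differentiation medium, which was part of how they came to be tested.

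The basement membrane zone collagens Col15a1 and Col18a1, which both carry endostatin-type domains, had unlike levels: the first peaked in normoxic differentiation medium and the second in normoxic growth medium. Col15a1 was at 5.27 to 5.71 FPKM in normoxic differentiation medium and between 0 and 0.0727 FPKM in the other 6 libraries. The 2 normoxic differentiation libraries thus stood apart from all others. Col18a1 was at 51.3 and 47.0 FPKM in normoxic growth medium, 14.4 and 13.0 in differentiation medium at 21% oxygen, 16.7 and 17.4 in hypoxic growth medium and 16.6 and 32.5 in hypoxic differentiation medium. Normoxic growth medium was above all other libraries for this gene. Col18a1 fell by 1.77 ± 0.27 with differentiation at 21% oxygen (limma, adjusted p = 0.00113) and by 1.47 ± 0.27 with hypoxia in growth medium (limma, adjusted p = 0.0056). In differentiation medium it was 0.73 ± 0.27 higher at 2% oxygen (limma, adjusted p = 0.0489), a call lost without replicate B of hypoxic differentiation medium (0.27, limma adjusted p = 0.0539) and without any 1 of the 6 libraries of the other groups. Without replicate A it was 1.19.

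Col25a1 and Col23a1, transmembrane collagens of which the first is known for its part in motor nerve contact with muscle, shared the pattern of Col15a1. Col25a1 was at 1.36 to 1.50 FPKM in normoxic differentiation medium and at most 0.0241 FPKM elsewhere, with 1 library of normoxic growth medium and 1 of hypoxic differentiation medium listed at 0. Col23a1, the gene nearest above the limit of 1 FPKM, was at 0.0454 and 0.0876 FPKM in normoxic growth medium, 1.15 and 0.920 in differentiation medium at 21% oxygen, 0.133 and 0.1501 in hypoxic growth medium and 0.0473 and 0.0748 in hypoxic differentiation medium. Only the normoxic differentiation libraries of Col23a1 were near 1 FPKM. Since Col15a1, Col23a1, Col24a1 and Col25a1 exceeded 1 FPKM in that group alone, the difference of that group from the others was part of how they came to be tested, and their levels are given without a test. Nearest under 1 FPKM were Col17a1, at 0.442 and 0.595, 0.231 and 0.245, 0.5003 and 0.384, and 0.376 and 0.561 FPKM in the 4 groups, and Col26a1, at 0.0744 and 0.0191, 0.303 and 0.563, 0.0193 and 0, and 0 and 0.0272 FPKM. Col7a1, the chain of anchoring fibrils, had a mean of 3.05 FPKM in normoxic differentiation medium and 0.619, 0.505 and 1.19 FPKM in normoxic growth, hypoxic growth and hypoxic differentiation medium. It rose by 1.32 ± 0.20 with differentiation at 21% oxygen (limma, adjusted p = 0.00105) and was lower at 2% than at 21% oxygen in differentiation medium by -0.92 ± 0.20 (limma, adjusted p = 0.00556), a difference of -0.60 without replicate A of hypoxic differentiation medium.

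**Figure D4:**
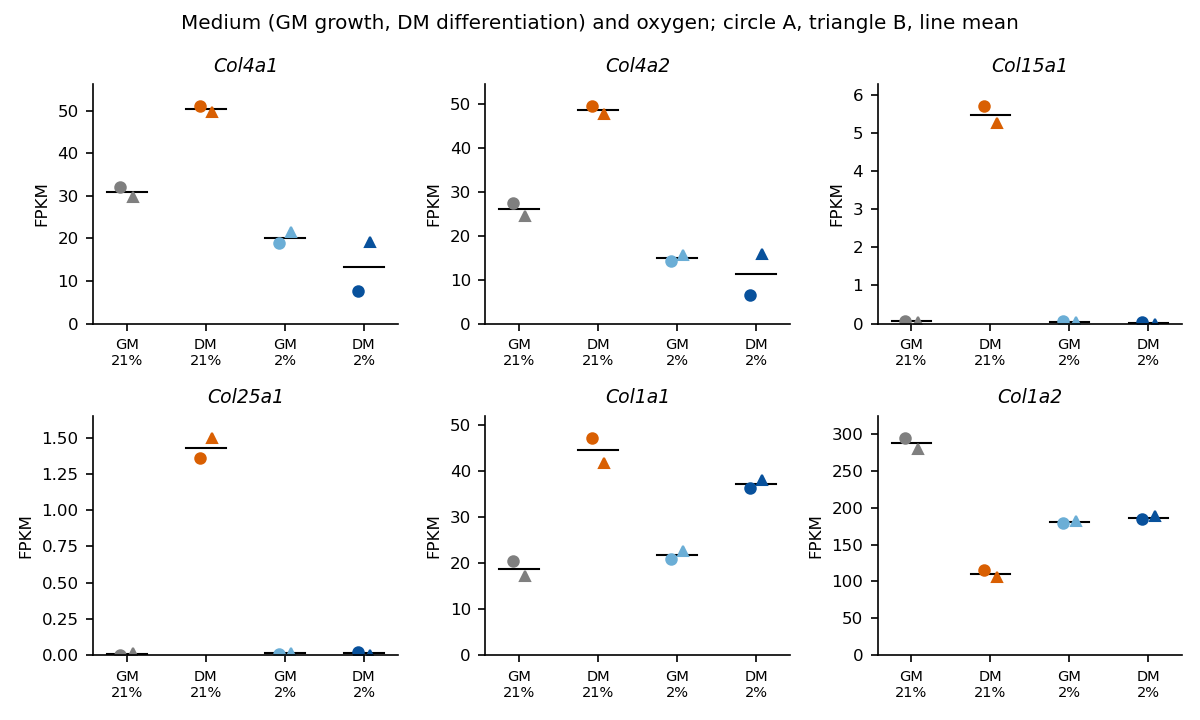
FPKM of Col4a1, Col4a2, Col15a1, Col25a1, Col1a1 and Col1a2 in each library by medium and oxygen, each panel on its own linear axis from 0, with a line at the mean of the 2 replicates. Col15a1 and Col25a1 are near 0 outside normoxic differentiation medium, Col4a1 and Col4a2 have the same outline, and Col1a1 and Col1a2 have unlike ones.

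Type VIII collagen, a short-chain network former, was represented by 2 chains. Col8a2 was at 14.6 and 10.7 FPKM in normoxic growth medium, 0.673 and 0.536 in differentiation medium at 21% oxygen, 2.19 and 2.85 in hypoxic growth medium and 1.28 and 1.47 in hypoxic differentiation medium. The 4 groups of Col8a2 did not overlap. It fell by 3.08 ± 0.17 with differentiation at 21% oxygen (log2, limma adjusted p = 1.2e-05) and by 1.95 ± 0.17 with hypoxia in growth medium (limma, adjusted p = 0.000307). Col8a1 was at 10.1 and 11.8, 8.50 and 8.01, 15.0 and 13.3, and 6.91 and 10.7 FPKM, with less contrast between groups. Col8a1 was called lower with differentiation at 2% oxygen alone among the 5 contrasts (-0.65 ± 0.19, limma adjusted p = 0.0321), a call lost without any 1 library of the other 3 groups, and its change was -0.37 without replicate A of hypoxic differentiation medium.

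With differentiation at 21% oxygen, type VI chains, Col1a2, Col5a2, Col12a1 and Col16a1 fell while Col1a1 and Col7a1 rose, and the counts of calls were close to those of all genes. Of the 27, 7 were called higher (Col1a1, Col7a1, Col15a1, Col20a1, Col23a1, Col24a1 and Col25a1), against 25.5% of all 12389 genes tested, and 12 were called lower (Col1a2, Col3a1, Col4a5, Col5a2, Col6a1, Col6a2, Col6a3, Col8a2, Col12a1, Col14a1, Col16a1 and Col18a1), against 41% of all genes. Their median log2 change was -0.28, and that of all genes was -0.20. Of the 7 called higher, 5 were genes above 1 FPKM in a single group (Col15a1, Col20a1, Col23a1, Col24a1 and Col25a1), and without the 7 such genes (these 5, Col4a5 and Col9a3) 2 of 20 were called higher and 11 lower. Median-of-ratios scaling moved the all-gene median to 0.02, the share of all calls that are higher from 38.4% to 53.2% and the collagen counts to 10 higher and 10 lower. The calls of Col1a1, Col1a2, Col5a2, Col6a1, Col6a2 and Col6a3 were made under it too, in the same direction.

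With differentiation at 2% oxygen the type VI chains, Col12a1 and Col16a1 fell and Col1a1 rose. In all, 3 collagen genes were called higher (Col1a1, Col4a5 and Col20a1), with 23.3% of all genes, and 10 lower (Col6a1, Col6a2, Col6a3, Col8a1, Col8a2, Col12a1, Col14a1, Col16a1, Col24a1 and Col27a1), with 17.6% of all genes. Without the genes above 1 FPKM in a single group, 1 of 20 was called higher and 9 lower. The median log2 change of the 27 was -0.11 against 0.07 over all genes. In this contrast the calls rest on few libraries: without replicate A or replicate B of hypoxic differentiation medium the higher calls were 7 or 5 and the lower calls 9 or 12, and without replicate A or B of hypoxic growth medium the higher calls were 1 and 1 and the lower calls 6 and 5. Calls of Col24a1 and Col8a2 were lost without either hypoxic differentiation library, and that of Col4a5 without replicate B. Col3a1 changed by 0.06 ± 0.24 with all libraries (limma, adjusted p = 0.875), by -0.35 without replicate A and by 0.46 without replicate B, and both of those values passed the threshold. The lists of genes called in the same direction at both oxygen levels held 2 of 7 (28.6%) and 2 of 3 (66.7%) of the higher calls, Col1a1 and Col20a1, and 7 of 12 (58.3%) and 7 of 10 (70.0%) of the lower calls, which were Col6a1, Col6a2, Col6a3, Col8a2, Col12a1, Col14a1 and Col16a1. Such overlaps were not counted over all genes and are a description. Col20a1 exceeded 1 FPKM in hypoxic differentiation medium alone, so its rise at 2% oxygen was part of how it came to be tested.

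Hypoxia in growth medium raised 4 collagen genes (Col5a1, Col12a1, Col16a1 and Col20a1), where 13.5% of all genes were called higher. It lowered 9 (Col1a2, Col4a5, Col6a1, Col6a2, Col8a2, Col14a1, Col18a1, Col24a1 and Col27a1), where 28% of all genes were called lower. Without the genes above 1 FPKM in a single group, 3 and 7 of 20 were called. Col20a1 was under 1 FPKM in both groups compared, with means of 0.158 and 0.562 FPKM. Its call was lost when any 1 library of these groups was left out. The median log2 change was -0.16 for the 27 and -0.14 for all genes. Without replicate A or B of hypoxic differentiation medium, libraries outside this contrast that enter its estimate of spread, 7 genes were called higher and 12 lower. Upper-quartile scaling gave 7 higher and 9 lower, with the higher share of all calls going from 32.6% to 49.1%.

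In differentiation medium hypoxia raised 9 (Col1a2, Col3a1, Col5a1, Col5a2, Col8a2, Col12a1, Col16a1, Col18a1 and Col20a1), beside 37.5% of all genes, and lowered 12 (Col4a1, Col4a2, Col5a3, Col6a1, Col6a2, Col7a1, Col14a1, Col15a1, Col23a1, Col24a1, Col25a1 and Col27a1), beside 27.7% of all genes. Without the genes above 1 FPKM in a single group, 8 and 8 of 20 were called. The median log2 change was -0.11 for the 27 and 0.15 for all genes. Median-of-ratios scaling gave 8 higher and 13 lower, with the higher share of all calls going from 57.5% to 46.7%. All 12 lower calls were made again without either hypoxic differentiation library, and the higher calls of Col8a2 and Col18a1 were lost without replicate B. The Col8a2 call (0.57 ± 0.17, limma adjusted p = 0.022) was also lost without either normoxic differentiation library.

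The hypoxia comparisons in the 2 media share no library, but both come from the same fit, with a common estimate of spread for each gene. All 4 genes called higher in growth medium were also called higher in differentiation medium, where they are 44.4% of the 9 higher calls. In differentiation medium 37.5% of all genes were called higher and 27.7% lower. The overlap of calls over all genes was not counted, so the overlaps here are a description. Of the 9 lower in growth medium, 5 were lower in differentiation medium (55.6%, and 41.7% of the 12 there): Col6a1, Col6a2, Col14a1, Col24a1 and Col27a1. The other 4 include Col1a2, Col8a2 and Col18a1, which were called higher with hypoxia in differentiation medium. Among the shared calls, Col20a1 exceeded 1 FPKM in hypoxic differentiation medium alone and Col24a1 in normoxic differentiation medium alone. Their differences in differentiation medium were thus part of how they came to be tested. Whether the medium changed the oxygen response was tested directly by the interaction, positive where the hypoxia change was greater in differentiation medium. It was called positive for 7 collagen genes, with 35.4% of all genes, and negative for 8, with 18.7% of all genes. Without the genes above 1 FPKM in a single group these were 6 and 4 of 20. Under median-of-ratios scaling 7 were positive and 10 negative, and the positive share of all calls went from 65.5% to 47.7%.

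**Figure D5:**
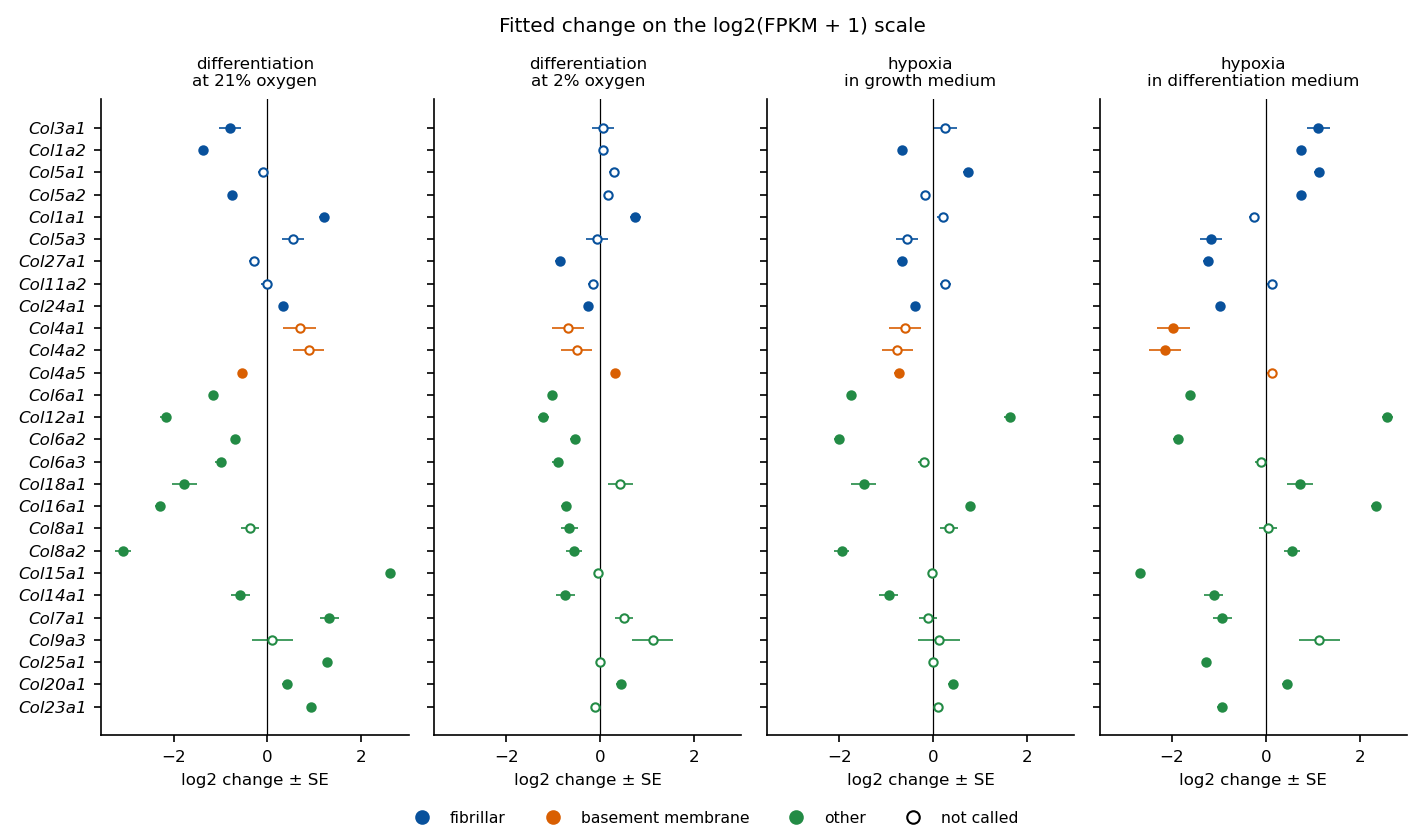
Fitted log2 change with its standard error for the 27 collagen genes in 4 contrasts, on the log2(FPKM + 1) scale (filled, called at an adjusted p under 0.05; colour, class). Col6a1 and Col6a2 lie left of 0 in all 4 panels, and Col12a1 and Col16a1 lie left of 0 in the differentiation panels and right of 0 in the hypoxia panels.

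Genes that make, cut or bind collagen were read from lists of partners. For all genes tested, the shares called higher and lower were 25.5% and 41% with differentiation at 21% oxygen, 13.5% and 28% with hypoxia in growth medium and 37.5% and 27.7% with hypoxia in differentiation medium, against which the list counts are set. In the folding and export list, which covers chaperones and carriers of the endoplasmic reticulum, 18 genes were tested. Hypoxia in growth medium raised 6 and lowered 2, and hypoxia in differentiation medium raised 10 and lowered 1, with a median log2 change of 0.00 and 0.87, where all genes had -0.14 and 0.15. P4hb, the disulfide isomerase that is also the second subunit of prolyl 4-hydroxylase, had mean levels of 419.5, 216, 1015 and 1457 FPKM in the 4 groups and rose with hypoxia by 1.27 ± 0.10 in growth medium and 2.74 ± 0.10 in differentiation medium (limma, adjusted p = 0.000257 and 2.25e-06). Differentiation at 21% oxygen lowered 11 and raised 4 of these 18. Crtap, a helper of prolyl 3-hydroxylation, fell there by 1.94 ± 0.08 (limma, adjusted p = 4.16e-06). Of 14 hydroxylases and lysyl oxidases tested, 10 rose and 3 fell with hypoxia in growth medium (13.5% and 28% of all genes), and 13 rose and 1 fell in differentiation medium (37.5% and 27.7% of all genes; median log2 change 1.05 and 1.99). P4ha2, a catalytic subunit of prolyl 4-hydroxylase, rose by 4.00 ± 0.16 and 3.86 ± 0.16 (limma, adjusted p = 2.51e-05 and 2.82e-06).

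Among 7 procollagen processing genes, 1 was called higher and 3 lower with hypoxia in growth medium (13.5% and 28% of all genes; median log2 change -0.55). Pcolce, which speeds the removal of the C-terminal propeptide, had means of 552 FPKM in normoxic growth medium and 69.7 FPKM in normoxic differentiation medium. It fell by 2.96 ± 0.14 with differentiation at 21% oxygen (limma, adjusted p = 5.91e-06) and was 1.99 ± 0.14 higher with hypoxia in differentiation medium (limma, adjusted p = 3.02e-05). Of 14 collagen-binding matrix proteins, 2 rose and 10 fell with hypoxia in growth medium (13.5% and 28% of all genes). With differentiation at 21% oxygen, 1 rose and 11 fell (25.5% and 41% of all genes). The median log2 change of this list was -1.28 with hypoxia in growth medium and -1.12 with differentiation at 21% oxygen, against -0.14 and -0.20 for all genes. Ogn, a small leucine-rich proteoglycan that binds fibrils, fell by 2.74 ± 0.11 with hypoxia in growth medium and by 2.66 ± 0.11 with differentiation at 21% oxygen (limma, adjusted p = 2.51e-05 and 3.86e-06).

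Basement membrane partners of type IV collagen held calls in both directions, as did all genes. With hypoxia in differentiation medium, 5 of 14 rose and 8 fell (37.5% and 27.7% of all genes). Among the 8 were Lama2, the laminin chain of adult muscle fibres (-2.90 ± 0.12, limma adjusted p = 2.9e-06), and Agrn, which organises the nerve-muscle contact (-2.69 ± 0.11, limma adjusted p = 3.13e-06). The list's median log2 change there was -0.39, against 0.15 for all genes. With differentiation at 21% oxygen, 6 rose and 6 fell (25.5% and 41% of all genes; median log2 change -0.33, against -0.20 for all genes). Of 9 collagen receptors, 3 rose and 2 fell with hypoxia in differentiation medium (37.5% and 27.7% of all genes; median log2 change 0.30, against 0.15 for all genes). Ddr2, a tyrosine kinase receptor for fibrillar collagen, fell by 1.17 ± 0.12 (limma, adjusted p = 0.000179). Of 9 collagen-degrading proteases and their inhibitors, 2 rose and 7 fell with differentiation at 21% oxygen (25.5% and 41% of all genes; median log2 change -0.73, against -0.20 for all genes). Mmp2, a gelatinase, fell there by 2.53 ± 0.09 (limma, adjusted p = 1.59e-06).

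Among 22 transcription and inducing factors of collagen genes, 0 were called higher by limma (1 at an unadjusted p under 0.05) and 9 lower with hypoxia in growth medium (13.5% and 28% of all genes; median log2 change -0.31), and 3 were higher and 12 lower with hypoxia in differentiation medium (37.5% and 27.7% of all genes; median log2 change -0.40). Tgfb2, a ligand of the TGF-beta pathway, fell by 2.41 ± 0.10 in the latter (limma, adjusted p = 3.73e-06), and Tgfbr2, a receptor of that pathway, rose by 2.43 ± 0.12 (limma, adjusted p = 5.78e-06). Scx, a tendon transcription factor that acts on fibrillar collagen genes, had means of 66.6 and 30.8 FPKM in normoxic and hypoxic growth medium and fell by 1.09 ± 0.09 (limma, adjusted p = 0.000287).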

How the data were processed

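The deposited table holds 1 FPKM value per gene for each of the 8 RNA libraries, made by the authors. STAR 2.5.1b, Cufflinks 2.2.1 and build mm9 are named in the submitters' processing notes; the annotation and the strand setting are not given in the sources used here. FPKM is relative to each library's total, so a few abundant genes can shift all others.

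Genes with a mean of at least 1 FPKM in a group (12389 of 24043) were fitted as log2(FPKM + 1) with limma 3.58.1 in R 4.3.3, as 4 group means with an intensity trend over all 8 libraries (residual degrees of freedom 4, prior 2.61). P-values were adjusted over all tested genes by Benjamini-Hochberg, with a threshold of 0.05. The pseudocount understates changes of low genes. An exact permutation of 2 against 2 libraries cannot go below p = 0.333 and was not used. The fit was tested on simulated data with known changes.

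Every collagen gene above 1 FPKM is named. Library values are given for those with at least 10 FPKM in a group and for the 4 nearest to 1 FPKM, and others by range or mean. Of each partner list and contrast, at most 2 genes were eligible, those with the largest called change, at least 10 FPKM in a group and no overlap between the libraries compared. The members and lists were chosen with earlier results of these data known. Promoter windows came from RefSeq (GRCm38.p6) and were matched by symbol; no coordinates of mm9 were used. Alternatives were 2 scalings, a pseudocount of 0.1, no filter, library weights, a replicate block, fits of the compared libraries alone and leaving out each library.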

Additional observations from a re-analysis of the deposited data

Results flagged for a closer look

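The difference between the responses to differentiation medium at the 2 oxygen levels was called for 15 of the 27 collagen genes. It was positive for 7 (25.9%) and negative for 8 (29.6%), against 35.4% and 18.7% of all tested genes. Without the genes above 1 FPKM in a single group, 6 of 20 were called positive and 4 negative. Each value below is the log2 change with differentiation at 2% oxygen minus that at 21% oxygen, on the log2(FPKM + 1) scale, with its SE and limma's adjusted p. The change at 21% oxygen thus enters each value with its sign reversed. Its direction, given below for each set, is therefore partly built into the sign of the value and is no separate result.

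The difference was called negative for 8 genes, 6 of which were raised by differentiation at 21% oxygen. Values were -2.66 ± 0.12 for Col15a1 (limma, adjusted p = 1.31e-05), -1.27 ± 0.11 for Col25a1 (0.000189) and -1.04 ± 0.13 for Col23a1 (0.000752). Col24a1 had -0.59 ± 0.12 (0.0064). These 4 genes were tested because normoxic differentiation medium, alone among the groups, was above 1 FPKM, so their values are a description. Col27a1 had -0.59 ± 0.15 (0.0153), not called without replicate A of normoxic differentiation medium or replicate B of hypoxic growth medium. Col4a2 had -1.38 ± 0.48 (0.046), which was -0.79 without replicate A of hypoxic differentiation medium and was not called without any 1 library of the other 3 groups. Col7a1 had -0.82 ± 0.28 (0.0443), -0.50 without that replicate A, with calls lost in the same 6 fits. Col1a1 had -0.46 ± 0.15 (0.0442), lost in 6 of the 8 fits that left out 1 library, and -0.77 under median-of-ratios scaling. Col4a1 was not called, but its value of -1.38 ± 0.49 (limma, adjusted p = 0.052) was close to that of Col4a2. It was called under median-of-ratios scaling (-1.69) and under upper-quartile scaling (-1.60).

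For 7 genes the difference was called positive, and all 7 were lowered by differentiation at 21% oxygen. These were Col8a2 (2.51 ± 0.24, limma adjusted p = 0.000244), Col18a1 (2.202 ± 0.38, 0.00315), Col16a1 (1.56 ± 0.14, 0.000189), Col1a2 (1.43 ± 0.11, 0.000101), Col12a1 (0.96 ± 0.17, 0.00343), Col5a2 (0.92 ± 0.11, 0.000627) and Col4a5 (0.86 ± 0.13, 0.00188). Col4a5 was tested because normoxic growth medium, alone among the groups, was above 1 FPKM, so its value is a description. All 7 values stayed positive without either hypoxic differentiation library. Under median-of-ratios scaling the Col5a2 value was 0.59.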

How the results depend on the processing

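Of 1998 gene values recomputed under the alternatives, 1765 kept their direction and side of the threshold, 115 lost a call, 84 gained one and 34 changed sign. For many of these values the direction could not change. The log2 change stays the same with library weights, a replicate block, no filter or the compared libraries alone. The same holds where the library left out is not part of the contrast. None of the 34 was called with all libraries and the main settings, and 2 passed the threshold in the alternative, Col3a1 and Col5a3 in differentiation at 2% oxygen without replicate A of hypoxic differentiation medium. The cause of these changes was not tested. Over the fits that left out 1 library, values that changed sign ran, for differentiation at 2% oxygen, from -0.35 to 0.46 for Col3a1, -0.46 to 0.32 for Col5a3, -1.09 to 0.090 for Col4a2, -0.035 to 0.89 for Col18a1 and -0.016 to 0.019 for Col25a1, and for differentiation at 21% oxygen from -0.032 to 0.00046 for Col11a2. With hypoxia in growth medium they ran from -0.0402 to 0.0081 for Col15a1 and -0.0054 to 0.016 for Col25a1, and in differentiation medium from -0.0045 to 0.26 for Col11a2 and -0.23 to 0.33 for Col8a1. Interactions ran from -0.0099 to 0.19 for Col6a3, -0.49 to 0.17 for Col14a1 and -0.12 to 0.16 for Col20a1. Median-of-ratios scaling gave 0.14 for Col11a2 and 0.17 for Col5a1 with differentiation at 21% oxygen, -0.13 for Col8a1 with hypoxia in differentiation medium, and interactions of -0.19, -0.17, -0.23 and -0.083 for Col6a1, Col6a2, Col6a3 and Col20a1. Upper-quartile scaling gave 0.030 for Col5a1 and 0.057 for Col11a2 with differentiation at 21% oxygen, -0.042 for Col1a2 and -0.035 for Col3a1 at 2%, 0.012 for Col5a2 with hypoxia in growth medium, and interactions of -0.096, -0.073, -0.13 and -0.047 for Col6a1, Col6a2, Col6a3 and Col20a1. A pseudocount of 0.1 gave an interaction of -0.47 for Col20a1. Fits that left out 1 library gave 1 to 7 collagen genes higher and 5 to 12 lower with differentiation at 2% oxygen, 3 to 7 higher with hypoxia in growth medium and 4 to 11 with a negative interaction. Fitting the compared libraries alone gave 1 higher and 6 lower with differentiation at 2% oxygen, upper-quartile scaling gave 7 higher with hypoxia in growth medium, and dropping the expression filter gave 5 negative interactions. Replicate letters do not pair the samples: correlations of A minus B between groups ran from -0.17 to 0.04. A replicate block gave 3 higher and 8 lower with differentiation at 2% oxygen, 8 higher with hypoxia in differentiation medium and 6 negative interactions, against 3, 10, 9 and 8. Without counts, precision at low FPKM could not be set per gene.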
